A study of Rattus norvegicus with 12 samples.

Results

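The liver restores its mass after partial hepatectomy (PH) under the control of growth factors that act on hepatocytes, and 10 genes of the hepatocyte growth factor (HGF) and epidermal growth factor (EGF) receptor systems were followed here in rat liver. They were listed by name for their known role, with earlier results of these data known: HGF, MET, HGFAC, PLAU, PLAUR, EGFR, TGFA, HBEGF, ERRFI1 and ERBB3. All 10 of 10 names were found among the 14692 genes listed. Of these, 9 had a mean of at least 1 RPKM (read counts scaled by transcript length and by library size) over the 12 columns, as did 8459 of the 12388 genes that were above 0 in any column. HBEGF, the exception, is described by its levels and is not among the 9 genes counted together below.

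RNA of whole liver was sequenced from adult male Sprague Dawley rats at 0, 4, 12 and 24 h after PH. Control animals underwent sham surgery 24 h ahead of PH, and the others received a biliary fistula, a catheter that drains bile to the outside and so empties the intestinal bile acid (BA) pool. Part of the fistula rats also received sodium taurocholate, a bile acid salt, through the duodenum, to ask whether BA return accounts for what drainage does. All rats, sham rats included, carried a duodenal catheter with a saline infusion, so every group had undergone abdominal surgery before PH and there was no unoperated liver. The groups are named Control, BF and BA after the sample titles. The study uses BF for the fistula and BA for the fistula with infusion, but the sample descriptions give those 2 titles the other way round, so the treatment behind a BF or a BA column is uncertain. Exchanging the names would change no level, but would swap the BF and BA time courses and comparisons with Control and turn the sign of each difference between them.

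The deposited values form 12 columns, 1 per group and time. Each combines a run on RNA of 1 rat with a run on pooled RNA of 3 rats, so 4 rats stand behind a value but no spread between rats is known. No difference below has a replicate check, an error or a p-value. A ratio is given as the log2 ratio of (RPKM + 1), which understates differences of genes at low levels, and a size of at least 1, that is 2-fold, was taken as the limit for counts. The number of reads per library is unknown. The hepatocyte markers found, 9 of 10, were all present in each column. The BA column at 4 h stood apart, with albumin at 30.9% of its RPKM sum against 5.60% to 13.4% in the other columns. That sum was also the largest, 982826 RPKM against 727435 to 785092 RPKM. The median gene of the column was the lowest, 8.68 RPKM against 9.35 to 14.25 RPKM. Whether the albumin share lowered other genes there was not tested. The BF column at 12 h held RNA of the pancreatic enzymes CTRB1 (84.7 RPKM), PRSS1 (16.6 RPKM) and CPB1 (11.9 RPKM). In bulk liver, fewer cells of a type and less RNA per cell cannot be told apart.

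HGF is made in liver mainly by stellate and endothelial cells, is stored in the matrix as an inactive single chain, and signals to hepatocytes through the receptor tyrosine kinase MET. The single chain is cleaved by serine proteases, among them HGF activator (gene HGFAC), which hepatocytes secrete as a plasma zymogen, and urokinase (PLAU), which is held at the cell surface by its receptor (PLAUR). In the other system, transforming growth factor alpha (TGFA) and heparin-binding EGF-like growth factor (HBEGF) are membrane-bound ligands of the EGF receptor (EGFR), ERBB3 is a relative of EGFR with little kinase activity of its own that signals in pairs with other ERBB receptors, and ERRFI1 (also called MIG6) binds the EGFR kinase and inhibits it as a feedback. Both systems are known as the direct mitogens of hepatocytes, with tyrosine kinase signals that converge on the same kinases inside the cell.

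RefSeq promoter windows, the 250 bases before the gene start in the GRCr8 assembly, were found for 9 of the 10 genes, ERBB3 being without one. They are shown for HGF, which was lower in BF than in BA at 4 of 4 times, for HGFAC, which was above Control in each BF and BA column, and for PLAUR, which was past 2-fold above 0 h at 4 h in each group. Capitals mark the letters found of a searched motif, on either strand, read 5′ to 3′ on the strand of the gene. The window of HGF lies at chr4:19700468-19700717 on the minus strand and holds a CCAAT box on the reverse strand. The window of HGFAC lies at chr14:79938774-79939023 on the minus strand and holds an HNF1 motif from 85 to 76 bases before the start. The window of PLAUR lies at chr1:89181113-89181362 on the plus strand and holds an AP-1 motif from 83 to 77 bases and a C/EBP motif from 73 to 66 bases before the start, which do not overlap.
HGF: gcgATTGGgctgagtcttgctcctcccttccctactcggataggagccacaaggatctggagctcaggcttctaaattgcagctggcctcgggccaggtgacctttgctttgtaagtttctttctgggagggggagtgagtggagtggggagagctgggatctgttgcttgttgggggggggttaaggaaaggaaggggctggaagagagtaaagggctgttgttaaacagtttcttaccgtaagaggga
HGFAC: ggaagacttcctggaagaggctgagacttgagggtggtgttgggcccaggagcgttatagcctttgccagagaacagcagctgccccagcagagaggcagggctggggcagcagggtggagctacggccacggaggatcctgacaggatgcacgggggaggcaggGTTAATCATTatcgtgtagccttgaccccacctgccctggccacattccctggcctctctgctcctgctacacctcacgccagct
PLAUR: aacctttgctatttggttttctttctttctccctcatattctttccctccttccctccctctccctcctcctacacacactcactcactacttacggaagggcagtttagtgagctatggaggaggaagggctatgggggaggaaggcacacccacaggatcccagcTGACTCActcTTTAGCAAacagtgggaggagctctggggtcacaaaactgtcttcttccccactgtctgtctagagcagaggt

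Among the 9 windows, PLAUR alone held the AP-1 letters TGANTCA, which 6.34% of 33469 rat promoter windows hold, and alone held the C/EBP letters TTGCNNAA (9.22%). The HNF1 motif, the letters in capitals in HGFAC with any base at the seventh place, was added after the sequence had been seen. It stood in HGFAC alone of the 9 and in 0.323% of all windows. CCAAT (34.0%) was found in HGF, HBEGF and ERRFI1, GGGCGG (30.5%) in PLAU, EGFR, TGFA and ERRFI1, TATAAA (12.9%) in ERRFI1, and the NF-kB motif (16.4%) in TGFA. None of the 9 held the CRE letters TGACGTCA (1.59%). A match describes letters in this window and is not a measured binding site.

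The levels of the 10 genes, which RPKM gives per length of transcript, spanned from under 1 RPKM to 520.0 RPKM. By the mean over the 12 columns the order was ERRFI1 (367 RPKM), HGFAC (186 RPKM), EGFR (51.1 RPKM), ERBB3 (30.8 RPKM), MET (17.6 RPKM), HGF (15.1 RPKM), PLAU (4.21 RPKM), TGFA (3.40 RPKM), PLAUR (1.74 RPKM) and HBEGF (0.374 RPKM). Each gene was above the next in order in at least 9 of the 12 columns, and HGFAC over EGFR, EGFR over ERBB3 and HGF over PLAU in 12 of 12. The neighbours that changed places most often were MET with HGF and TGFA with PLAUR, each pair in that order in 9 of 12 columns. Their ranges overlapped: MET reached down to 10.6 RPKM and HGF up to 29.9 RPKM. Ranked within a column among all genes above 0, ERRFI1 stood at percentiles 97.4 to 98.8 and HGFAC at 94.1 to 98.1. PLAUR had the widest range of rank, from percentile 25.3 to 54.8.

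**Figure D1:**
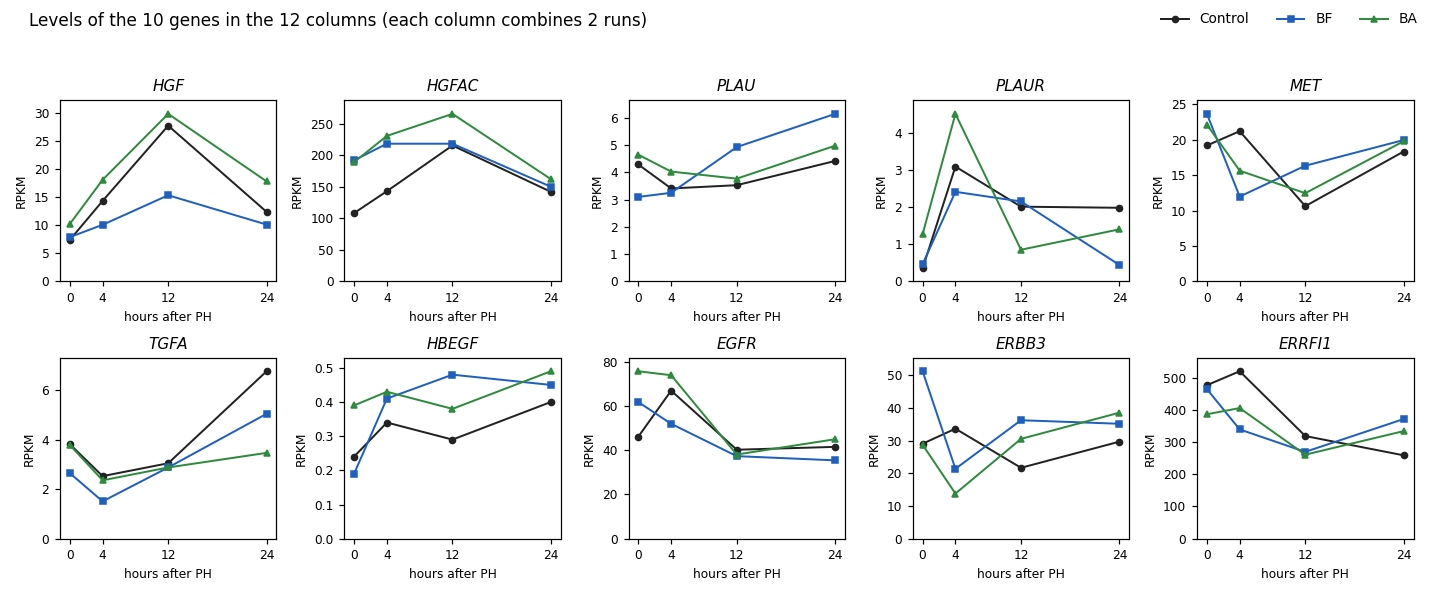
RPKM (vertical axes, each from 0) against hours after PH for the 10 genes in Control, BF and BA, each point being 1 column that combines 2 runs, with no error available. HGF is highest at 12 h in each group and lies lower in BF (15.4 RPKM) than in Control (27.8 RPKM) or BA (29.9 RPKM) at that time, while PLAUR is highest at 4 h in each group.

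HGF was higher after PH than at 0 h in each group and highest at 12 h, and the level reached was lowest in the BF columns. In Control it was 7.40 RPKM at 0 h, 14.4 RPKM at 4 h, 27.8 RPKM at 12 h and 12.4 RPKM at 24 h. In BF it was 7.90, 10.1, 15.4 and 10.1 RPKM at the same times. In BA it was 10.3, 18.1, 29.9 and 17.9 RPKM. The 0 h columns of Control and BF lay side by side, and from 4 h on BF was the lowest column at each time. The ratio of 12 h to 0 h was 3.76-fold in Control (log2 ratio 1.78), 2.92-fold in BA (1.46) and 1.95-fold in BF (0.88), so the limit was passed in Control and BA and was not reached in BF. The BF ratio lay near the limit, at 0.93 and 0.97 with columns rescaled to the median gene and the upper quartile. The BF column at 12 h is the one with RNA of pancreatic enzymes. HGF was above its 0 h level in 9 of 9 columns after PH. With columns rescaled to the same median gene it was 8 of 9, since BF at 24 h then gave a log2 ratio of -0.048.

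HGF was lower in BF than in BA at 4 of 4 times, with log2 ratios of -0.34, -0.79, -0.92 and -0.76 at 0, 4, 12 and 24 h, the widest gap standing at 12 h. Against Control, BF gave 0.08 at 0 h and -0.47, -0.82 and -0.27 at 4, 12 and 24 h, and BA gave 0.42, 0.32, 0.10 and 0.49. BF and BA were both compared with the same Control columns. None of these differences reached 2-fold, and all 4 signs of BF against BA and the 3 signs of BF against Control after PH were kept under each rescaling. Without the BF column at 12 h, HGF was lower in BF than in BA at 3 of 3 times and lower than in Control at 2 of 2 times after PH. Which of BF and BA is the infused group is uncertain, as stated above.

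The stellate cell markers, the genes of a main HGF source, did not have this pattern. All 12 markers listed were found, 10 of them at a mean of 1 RPKM or more, and their sum ran from 107 to 171 RPKM in Control, 118 to 205 RPKM in BF and 118 to 171 RPKM in BA. The median log2 ratio of the 10 markers at 12 h against 0 h was -0.62 in Control, -0.55 in BF and -0.36 in BA, while HGF was higher in each. The markers were split: 3 of the 10 were higher at 12 h than at 0 h in each group, PDGFRB each time among them. For BF against BA at 12 h the marker median was 0.00048, with 5 of 10 markers higher in BF, and for BF against Control it was 0.051. Of 10 endothelial markers, 7 were found, and their sum was 83.4, 87.9, 62.4 and 73.4 RPKM in Control, 79.6, 71.5, 64.9 and 73.5 RPKM in BF, and 76.1, 74.5, 61.6 and 67.5 RPKM in BA, lowest at 12 h in each group. The endothelial markers were split too. FLT1 was higher at 12 h than at 0 h in each group, at 6.67 against 3.78 RPKM in Control. It was at 5.11 against 4.21 RPKM in BF and at 5.85 against 4.64 RPKM in BA. TEK was higher at 12 h in BA (5.67 against 5.56 RPKM). All other endothelial values were lower at 12 h, those of LYVE1, the largest part of the sum, among them. HGF per cell was not measured.

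**Figure D2:**
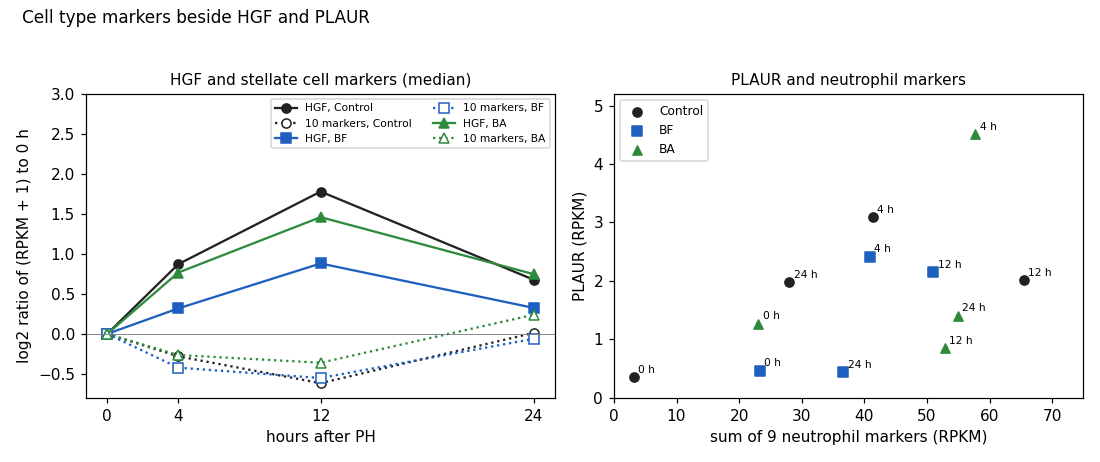
Left, log2 ratio of (RPKM + 1) to 0 h of the same group for HGF (filled symbols, solid lines) and the median of 10 stellate cell markers (open symbols, dotted lines) against hours after PH. Right, PLAUR against the summed RPKM of 9 neutrophil markers, 1 point for each of the 12 columns with its time. HGF lies above 0 and the marker median below 0 at 4 and 12 h in each group. PLAUR is highest at 4 h whereas the neutrophil sum is highest at 12 h in Control and BF.

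HGFAC was highest at 12 h in Control and BA, equal at 4 and 12 h in BF to the digits shown, and was above Control in 8 of 8 BF and BA columns, most at 0 and 4 h. Control had 108 RPKM at 0 h, 143 RPKM at 4 h, 215 RPKM at 12 h and 142 RPKM at 24 h. In BF it was 192, 218, 218 and 149.9 RPKM, and in BA 189, 230.4, 265 and 162 RPKM. The BF and BA columns thus started at levels that Control passed only at 12 h. The log2 ratio to Control at 0 h was 0.82 in BF and 0.80 in BA, at 4 h 0.61 and 0.69, at 12 h 0.02 and 0.30, and at 24 h 0.08 and 0.19. The Control ratio of 12 h to 0 h, 0.99, stood just under the limit, whereas it was 0.18 in BF and 0.49 in BA. The Control ratio passed the limit with columns rescaled to the median gene (1.20) or the upper quartile (1.15). Under the same rescalings the ratio to Control at 0 h was 1.04 and 1.00 in BF, and 0.90 and 0.92 in BA. BF and BA differed from each other in HGFAC by no more than 0.28 in size. The 8 of 8 held under each rescaling.

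PLAU stayed between 3.10 and 6.15 RPKM in all columns. The Control columns held 4.29, 3.41, 3.53 and 4.42 RPKM at 0, 4, 12 and 24 h, in BF 3.10, 3.25, 4.93 and 6.15 RPKM, and in BA 4.65, 4.03, 3.77 and 4.98 RPKM. BF went from the lowest column at 0 h to the highest at 24 h, with log2 ratios to 0 h of 0.05, 0.53 and 0.80, none past the limit. In Control and BA the ratio to 0 h did not exceed 0.26 in size.

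PLAUR, the urokinase receptor, passed 2-fold above 0 h at 4 h in 3 of 3 groups, and the groups then parted. In Control it was 0.35 RPKM at 0 h, 3.09 RPKM at 4 h, 2.01 RPKM at 12 h and 1.98 RPKM at 24 h, so that it stayed above 0 h throughout. In BF it was 0.46, 2.41, 2.15 and 0.44 RPKM and so at 24 h lay beside its 0 h level. In BA it was 1.27, 4.51, 0.85 and 1.40 RPKM and was below its 0 h level already at 12 h. The log2 ratios at 4, 12 and 24 h were 1.60, 1.16 and 1.14 in Control, 1.22, 1.11 and -0.02 in BF, and 1.28, -0.30 and 0.08 in BA. At 24 h PLAUR was lower in BF than in Control by more than 2-fold (log2 ratio -1.05), but the ratio was -0.86 with columns rescaled to the median gene. These are low levels, and the pseudocount holds the ratios down: the difference of BA from Control at 0 h was 0.75 with 1 RPKM added and 1.61 with 0.1 RPKM added.

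PLAUR is known to be expressed by myeloid cells, and the summed RPKM of neutrophil markers was also higher after PH than at 0 h. The sum of the 9 of 10 neutrophil markers found was 3.18, 41.3, 65.5 and 28.0 RPKM in Control, 23.3, 40.9, 51.0 and 36.6 RPKM in BF, and 23.0, 57.7, 52.9 and 54.9 RPKM in BA. Nearly all of it came from S100A8 and S100A9, the only markers averaging 1 RPKM or more, while MPO, ELANE and LTF were below 0.1 RPKM in every column. The other low markers were not uniform. CSF3R in BF was at 0.70 RPKM at 0 h and lower after PH, at 0.39, 0.58 and 0.53 RPKM. In Control CSF3R was at 0.22 RPKM at 0 h and then at 0.57, 0.96 and 0.66 RPKM. MMP8 was higher after PH in each group. The sum of the 11 Kupffer cell and macrophage markers found was between 407 and 582 RPKM. At 24 h in BF and at 12 h in BA the neutrophil sum was higher than at 0 h while PLAUR was not. The part of these cells in the level of PLAUR was not tested.

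MET, the receptor of HGF, was lower at 12 h than at 0 h in 3 of 3 groups, and the groups differed at 4 h. Control had 19.2 RPKM at 0 h, 21.2 RPKM at 4 h, 10.6 RPKM at 12 h and 18.3 RPKM at 24 h. In BF it was 23.7, 12.0, 16.3 and 20.0 RPKM, with its lowest level at 4 h. In BA it was 22.1, 15.6, 12.5 and 19.8 RPKM, with its lowest level at 12 h as in Control. By 24 h the 3 groups lay within 18.3 to 20.0 RPKM of each other. The log2 ratio of 4 h to 0 h was 0.14 in Control, -0.93 in BF and -0.48 in BA, and that of 12 h to 0 h was -0.80, -0.51 and -0.78. None reached 2-fold. In Control and BA the lowest MET column was the one with the highest HGF, and over the 12 columns the pair had a Pearson correlation of -0.65 on the log2 scale. The 12 columns share their libraries across genes and are no replicates, so this only describes them.

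TGFA was lower at 4 h than at 0 h in 3 of 3 groups. At 24 h it was at its highest in Control and BF but not in BA. The Control columns held 3.82, 2.53, 3.05 and 6.77 RPKM at 0, 4, 12 and 24 h, in BF 2.65, 1.51, 2.88 and 5.05 RPKM, and in BA 3.79, 2.36, 2.88 and 3.47 RPKM. The log2 ratio of 24 h to 0 h was 0.69 in Control, 0.73 in BF and -0.10 in BA, and BA at 24 h was below Control by a log2 ratio of -0.80, short of the limit. HBEGF was between 0.19 and 0.49 RPKM in all columns. It was 0.24, 0.34, 0.29 and 0.40 RPKM in Control, 0.19, 0.41, 0.48 and 0.45 RPKM in BF, and 0.39, 0.43, 0.38 and 0.49 RPKM in BA. At this level and with no known read depth, no difference in HBEGF could be read.

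EGFR differed between the groups before PH and little between them at 12 h. Its Control levels were 46.1 RPKM at 0 h, 66.9 RPKM at 4 h, 40.2 RPKM at 12 h and 41.5 RPKM at 24 h. In BF it was 61.7, 51.9, 37.3 and 35.4 RPKM, and in BA 75.6, 73.8, 38.0 and 44.9 RPKM. Control had its highest level at 4 h, whereas BF and BA had it at 0 h. The log2 ratio to Control at 0 h was 0.41 in BF and 0.70 in BA, and at 12 h it was -0.11 and -0.08. The ratio of 12 h to 0 h was -0.97 in BA, close to the limit, -0.71 in BF and -0.19 in Control, the last of which became 0.012 with columns rescaled to the median gene. The ratio of 24 h to 0 h in BF was -0.79. It passed the limit with columns rescaled to the median gene (-1.19) or the upper quartile (-1.09). EGFR was lower in BF than in BA at 4 of 4 times, by log2 ratios from -0.03 at 12 h to -0.50 at 4 h.

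Among the receptor tyrosine kinases MET, EGFR and ERBB3, only ERBB3 passed the limit without rescaling. At 4 h ERBB3 was lower than at 0 h in BF (log2 ratio -1.22) and in BA (-1.01), while Control gave 0.21. In Control it was 29.1, 33.7, 21.7 and 29.7 RPKM at 0, 4, 12 and 24 h, in BF 51.3, 21.4, 36.3 and 35.2 RPKM, and in BA 28.8, 13.8, 30.6 and 38.6 RPKM. The lowest column was 4 h in both BF and BA and 12 h in Control. BF started from the highest level of all columns, with a log2 ratio to Control of 0.80 at 0 h, and BA at 4 h had the lowest, with a ratio to Control of -1.23. The BA column at 4 h is the one with the high share of albumin. With columns rescaled to the median gene its ratio to 0 h was -0.75 and its ratio to Control -0.997, just under the limit, and without that column ERBB3 was past 2-fold lower at 4 h in 1 of 2 groups.

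ERRFI1, the inhibitor of EGFR, was the most abundant of the 10 genes and was lower at 12 and 24 h than at 0 h in 6 of 6 columns. Its Control levels were 477 RPKM at 0 h, 520.0 RPKM at 4 h, 319 RPKM at 12 h and 259 RPKM at 24 h. In BF it was 465, 339, 269.7 and 372 RPKM, and in BA 386, 406, 261 and 334 RPKM. Control had its lowest level at 24 h, while BF and BA had theirs at 12 h and were higher again at 24 h. The log2 ratio of 24 h to 0 h was -0.88 in Control (-1.22 with columns rescaled to the median gene), -0.32 in BF and -0.21 in BA. At 4 h the ratio to Control was -0.61 in BF and -0.36 in BA. Over the 12 columns EGFR and ERRFI1 had a Pearson correlation of 0.65, given as a description.

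**Figure D3:**
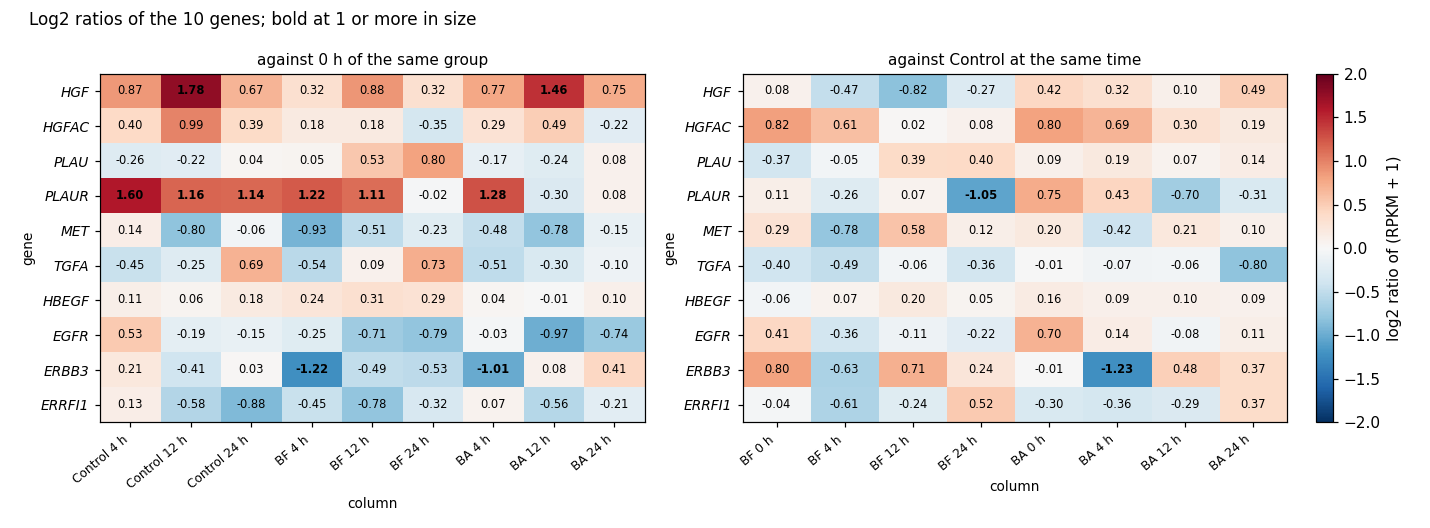
Log2 ratios of (RPKM + 1) for the 10 genes (vertical axis) by column (horizontal axis), against 0 h of the same group (left) and against Control at the same time (right), with color from blue (lower) to red (higher) and bold values of at least 1 in size. PLAUR holds 6 of the 10 bold values on the left and HGF 2, and on the right 2 values are bold, PLAUR in BF at 24 h and ERBB3 in BA at 4 h.

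Counted together, few of the 9 genes passed 2-fold. In Control, 1 of 9 was higher at 4 h (PLAUR), where 4.01% of the 8459 genes were, 2 of 9 at 12 h (HGF and PLAUR; 3.96% of all genes) and 1 of 9 at 24 h (PLAUR; 8.29%). None of 9 was past 2-fold lower at these times, where 5.19%, 9.94% and 3.03% of all genes were. In BF, 1 of 9 was higher (PLAUR; 5.13%) and 1 of 9 lower (ERBB3; 6.92%) at 4 h, 1 of 9 was higher (PLAUR; 2.46%) and 0 of 9 lower (5.15%) at 12 h, and none passed at 24 h, where 9.27% of all genes were higher and 1.88% lower. In BA, 1 of 9 was higher (PLAUR; 4.61%) and 1 of 9 lower (ERBB3; 13.2%) at 4 h, 1 of 9 was higher (HGF; 1.29%) and 0 of 9 lower (5.77%) at 12 h, and none passed at 24 h (3.83% and 1.41%). A single gene is the smallest count above 0, and these counts are not read as setting the 9 genes apart.

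Between groups, ERBB3 was the only 1 of 9 past 2-fold lower in BA than in Control at 4 h (all genes 5.26% lower and 2.02% higher), and PLAUR the only 1 of 9 past it in BF at 24 h (all genes 1.31% lower and 0.768% higher). None of 9 passed in the other comparisons between groups. For BF against Control, the shares of all genes higher and lower were 1.73% and 2.16% at 0 h, 1.19% and 3.16% at 4 h, and 1.84% and 1.68% at 12 h. For BA against Control they were 1.87% and 2.15% at 0 h, 0.591% and 1.12% at 12 h, and 0.721% and 1.32% at 24 h. For BF against BA they were 0.426% and 1.39% at 0 h, 2.39% and 2.33% at 4 h, 1.16% and 0.757% at 12 h, and 0.887% and 0.969% at 24 h. At 4 h, 8 of the 9 members had a lower value in BF than in Control, with a median log2 ratio of -0.47 against -0.07 over all genes, HGFAC being the exception. Of all genes, 40.1% were higher in BF in this comparison, as was 1 of the 9 members. Against BA at 4 h, BF was likewise lower for 8 of 9, with a median of -0.36 against 0.15 over all genes, ERBB3 being the exception. Here 67.5% of all genes were higher in BF, as was 1 of the 9 members. With columns rescaled to the median gene the members' medians were -0.38 and -0.50 (all genes 0.02 and 0.04), and PLAU turned to 0.026 against Control. At 24 h, 7 of 9 were higher in BA than in Control (median 0.14, all genes -0.17), as were 22.6% of all genes. The median of BF against Control at 24 h was 0.08 (all genes -0.11). These directions are given after the values were seen, and the other comparisons were less one-sided. At 0 h, 6 of 9 were higher than in Control in BF and in BA (25.9% and 35.1% of all genes). BF was higher than Control for 5 of 9 at 12 h (40.4%) and at 24 h (28.4%).

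Other genes of both pathways were taken from a list of 59 names chosen by known role, of which 53 were found and 40 passed the same minimum mean. Against 0 h, in Control 2 of 40 were past 2-fold higher and 2 lower at 4 h, 1 higher and 7 lower at 12 h, and 2 higher and 1 lower at 24 h. In BF these were 1 and 4, 3 and 4, and 2 and 1, and in BA 3 and 3, 0 and 4, and 1 and 0. The shares of all genes higher and lower in Control were 4.01% and 5.19% at 4 h, 3.96% and 9.94% at 12 h, and 8.29% and 3.03% at 24 h. In BF they were 5.13% and 6.92%, 2.46% and 5.15%, and 9.27% and 1.88%, and in BA 4.61% and 13.2%, 1.29% and 5.77%, and 3.83% and 1.41%. Nothing is read from these counts about the list as a whole.

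Of the EGF family ligands, EGF itself was past 2-fold lower at 12 h in 3 of 3 groups. It was 9.89 RPKM at 0 h and 1.61 RPKM at 12 h in Control (log2 ratio -2.06), 7.49 and 2.10 RPKM in BF (-1.45), and 5.09 and 1.79 RPKM in BA (-1.13). Neuregulin 1 (NRG1), a ligand of ERBB3, went the other way and was past 2-fold higher at 24 h in 3 of 3 groups, from 1.20 to 6.33 RPKM in Control (1.74), from 0.83 to 4.22 RPKM in BF (1.51) and from 1.47 to 5.30 RPKM in BA (1.35). AREG and EREG were at most 0.11 RPKM in all columns. ERBB2, the usual partner of ERBB3, had a mean of 0.137 RPKM and ERBB4 of 0.0067 RPKM, far below EGFR and ERBB3.

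Of the proteases, plasma kallikrein (KLKB1), which can cleave HGF, was past 2-fold lower at 12 h in 3 of 3 groups. It stood at 309 RPKM at 0 h and 75.5 RPKM at 12 h in Control (log2 ratio -2.02), at 245 and 106 RPKM in BF (-1.20) and at 194 and 78.2 RPKM in BA (-1.30). Plasminogen (PLG), the substrate of urokinase, was likewise at 1634 and 801 RPKM in Control (-1.03), 1872 and 874 RPKM in BF (-1.10) and 1624 and 732 RPKM in BA (-1.15). With columns rescaled to the median gene PLG was at -0.82 in Control and -0.99 in BA and so under the limit. In each group KLKB1 and PLG were at their lowest at 12 h, the time at which HGF was at its highest.

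The adaptors GRB7 and GRB14, which bind receptor tyrosine kinases, were past 2-fold lower at 4 h in 3 of 3 groups. At 0 and 4 h GRB7 was at 12.8 and 3.94 RPKM in Control (-1.48), 11.3 and 3.46 RPKM in BF (-1.46) and 8.91 and 1.19 RPKM in BA (-2.18). GRB14 was at 45.3 and 20.7 RPKM in Control (-1.09), 37.7 and 12.9 RPKM in BF (-1.47) and 33.4 and 12.0 RPKM in BA (-1.40). With columns rescaled to the median gene GRB14 in Control was at -0.97, which leaves 2 of 3 groups past the limit.

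Between groups, 3 of 40 listed genes were past 2-fold lower in BF than in Control at 4 h, namely SERPINA5, SPRY4 and SDC4, and none was higher, beside 3.16% and 1.19% of all genes. These 3 are named after their values were seen, and this comparison was picked in the same way. BA against Control at 4 h gave 1 higher and 2 lower, beside 2.02% and 5.26% of all genes. BF against BA at 4 h gave 1 higher and 4 lower, beside 2.39% and 2.33%. SERPINA5 was not particular to BF, at 1.94 RPKM in Control, 0.25 RPKM in BF and 0.17 RPKM in BA at 4 h. SPRY4 stood at the limit (log2 ratio -1.004) and was at -0.97 and -0.96 with columns rescaled to the median gene and the upper quartile. In BF SPRY4 was at 0.77 RPKM at both 0 and 4 h, so it was low before PH. It was at 2.02 and 2.55 RPKM in Control and at 1.14 and 4.53 RPKM in BA. Syndecan 4 (SDC4), a heparan sulfate carrier at the cell surface, was at 114 RPKM at 0 h and 291 RPKM at 4 h in Control, 105 and 126 RPKM in BF, and 81.2 and 205 RPKM in BA. The BF log2 ratio to Control at 4 h was -1.20.

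**Figure D4:**
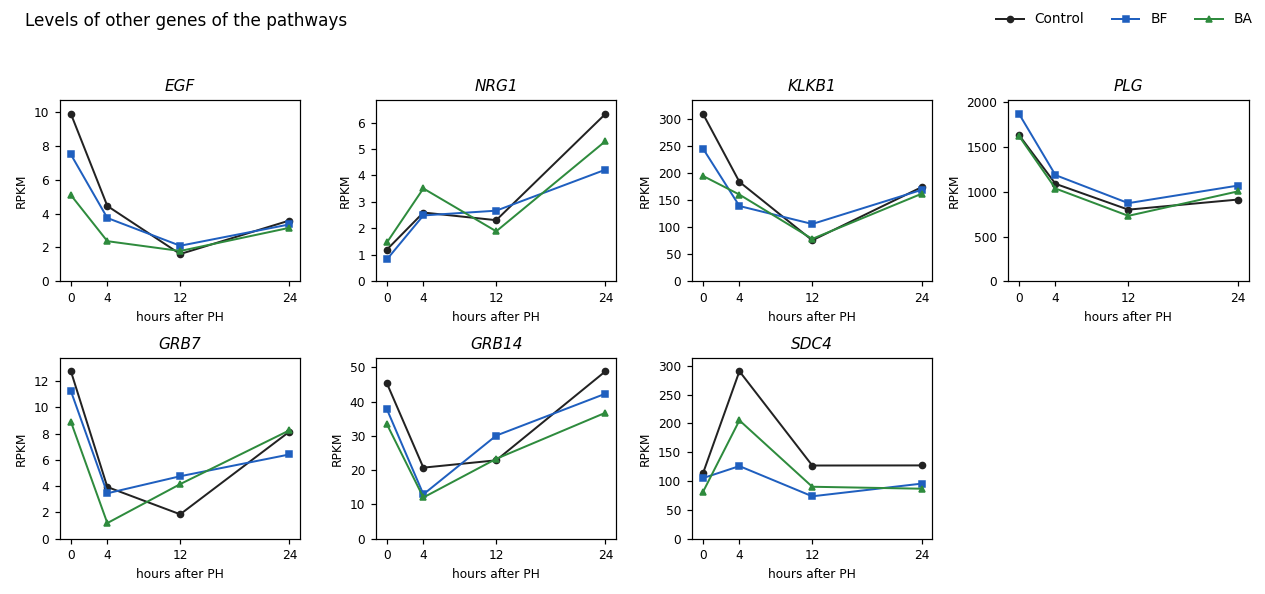
RPKM against hours after PH for 7 other genes of both pathways in Control, BF and BA, on axes from 0, each point being 1 column with no error available. EGF, KLKB1 and PLG are at their lowest at 12 h in each group, NRG1 is highest at 24 h in each group, and GRB14 is lowest at 4 h.

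The genes whose pattern over the 12 columns was most like that of a member were found by the Pearson correlation of log2(RPKM + 1) with all 8459 genes. They are given as a description, since the 12 columns share libraries and scaling and the best of many genes is always high. For HGF they were IL1R2 (0.92), the interleukin 1 decoy receptor, JAM2 (0.91), a junctional adhesion molecule, and SOD2 (0.91), the mitochondrial superoxide dismutase. For HGFAC they were PRG4 (0.94), SIRPA (0.90) and SERPINA11 (0.90). For PLAUR they were B4GALT1 (0.92), RGD1305685 (0.91) and ALPL (0.91), and for MET MAN2A1 (0.96), NPAL1 (0.94) and STAT6 (0.93). For EGFR the values were lower, with LOC363326 (0.87), TGFBR3 (0.86) and PTPRJ (0.85), a phosphatase known to act on EGFR and MET. For TGFA they were IQGAP1 (0.96), CYB5R1 (0.95) and RGD1310571 (0.94), for ERRFI1 LOC498940 (0.94) and CYP3A2 (0.91), and for ERBB3 WFDC3 (0.91), RXRG (0.90) and PEX14 (0.90). PLAU varied by less than 2-fold on this scale and was not searched. Among the members themselves the highest correlations were 0.65 for EGFR with ERRFI1, 0.64 for PLAU with TGFA, 0.60 for MET with ERBB3 and 0.60 for HGF with HGFAC.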

How the data were processed

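Whole rat liver was sequenced in 12 samples, 1 for each of 3 groups at 4 times. The authors computed RPKM and deposited 1 table with 2 decimals, in which 2 RPKM files per group and time (1 rat, and combined RNA of 3 rats) were averaged. CASAVA, Bowtie 0.12.2 and the builds mm8 and rn4 are named in the submitters' processing notes without a role, and the annotation, the weights of that average and the reads per library are not given in the sources used here. RPKM divides by the total of a library, so very abundant transcripts lower all others.

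Groups were taken from the sample titles. Log2 ratios of (RPKM + 1) were computed for 21 comparisons over genes averaging 1 RPKM or more, with a size of 1 as the limit and no test. All 10 members were named with every column. From the pathway list, genes past 2-fold the same way against 0 h in all 3 groups at a time, or between a fistula group and Control at 2 or more times, were named, and for each member varying by at least 1 the 3 genes of highest correlation. Some genes selected by these rules are not reported here. Members and lists (pathway, cell type markers, motifs) were chosen with earlier results of these data known. EPGN, NRG4, ADAM10, CBL, LRIG1 and LRIG3 were not found by name. Promoters came from RefSeq (GRCr8). Alternatives were a pseudocount of 0.1 RPKM, no filter, columns rescaled to the median gene or upper quartile and, added after seeing the data, leaving out the BF 12 h or BA 4 h column. Computations used Python 3.11.15, numpy 2.4.6, pandas 2.3.3 and matplotlib 3.10.9. Only the log2 ratio and its limit were run on simulated data. The changes there were set past the limit without noise, so this checks the code of that step and nothing else.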

Additional observations from a re-analysis of the deposited data

Results flagged for a closer look

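In 6 instances a gene went in opposite directions against 0 h in a pair of groups, with log2 ratios at least 1 apart. With 1 column per group and time, the differences were not tested. MET at 4 h was at 0.14 in Control and -0.93 in BF, a difference of 1.06. ERBB3 at 4 h was at 0.21 in Control against -1.22 in BF, 1.43 apart, and against -1.01 in BA, 1.21 apart. The BA column at 4 h is the one in which albumin took 30.9% of the RPKM sum. PLAUR at 12 h was at -0.30 in BA, 1.45 below Control (1.16) and 1.40 below BF (1.11). PLAUR at 24 h was at 1.14 in Control and -0.02 in BF, 1.16 apart. With columns rescaled to the median gene the opposite signs remained in all 6 (for ERBB3 in Control and BA 0.33 and -0.75). The BF and BA names are uncertain throughout, and the Control columns are shared.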

How the results depend on the processing

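Each value is 1 combined column, so no replicate could be left out, and exchanging the names BF and BA would by construction swap their time courses and their comparisons with Control and turn the sign of their difference. Groups were set side by side at each shared time without a test. With 1 column per group and time there were no replicate rats to pair. Of 630 recomputed log2 ratios of the members, HBEGF included, 608 stayed on the same side of the limit and none past the limit changed sign. Rescaled to the median gene, 8 of 81 ratios between times and 6 of 108 between groups changed sign, none over 0.32 in size. The lead counts of HGF, HGFAC, PLAUR and MET held without the BF 12 h or the BA 4 h column; for ERBB3 past 2-fold lower at 4 h, 1 of 2 groups remained without BA 4 h. The cause of the shifts listed next was not tested. Counts that changed by a ratio of 1.5 or less are left out. Among these is Control at 12 h against 0 h, where HGFAC also passed the limit under both rescalings. Counts of the 9 members past 2-fold became, with 0.1 RPKM added, 1 higher in BA than Control at 0 h, 1 lower in BA than Control at 12 h, 1 lower in BF than BA at 0 and at 24 h, and 1 higher in BF than BA at 12 h. On the median gene they became 0 lower in BA than Control at 4 h, 2 higher in BF than Control at 0 h (upper quartile 1) and, under both rescalings, 0 lower in BF than Control at 24 h. Against 0 h they became 2 higher for BA at 4 h (median gene) and, under both rescalings, 0 lower for BA at 4 h, 1 lower for BF at 24 h, and 0 higher and 1 lower for Control at 24 h. The members' median less that of all genes became 0.51 for BF against Control at 0 h with 0.1 RPKM added, and without the filter -0.25 for BF and 0.024 for Control at 24 h against 0 h. For the 40 pathway genes, 0.1 RPKM added gave, against 0 h, 5 higher and 6 lower for BA at 4 h, 8 lower for BA at 12 h, 2 higher for BF at 4 h and for Control at 12 h, and 2 lower for BF and for Control at 24 h. Between groups it gave, for BA against Control, 1 lower at 0 h, 2 higher at 4 h, 2 higher at 12 h and 1 lower at 24 h; for BF against Control, 2 lower at 0 h, 5 lower at 4 h, and 2 higher and 1 lower at 12 h; and for BF against BA, 2 lower at 0 h and 1 lower at 12 h. Both rescalings gave 2 lower for BA and 4 lower for Control at 12 h, 1 higher and 5 lower for BF at 24 h, 2 higher in BA than Control at 4 h and 0 higher in BF than BA at 4 h. The median gene and the upper quartile gave 6 and 5 higher for BA at 4 h and 7 and 5 lower for Control at 24 h, and the median gene 1 lower for Control at 4 h. The unknown number of reads limits PLAUR and HBEGF most.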
